A study of Mus musculus with 19 samples.

Results

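Il33, Il1rl1 and Ch25h were followed across 19 isolated mouse hearts, as the probe sets that the platform annotation gives to each symbol alone. Of these 3 genes, 2 could be followed, among 22180 genes tested: Il33 had 1 such probe set and Ch25h had 2, and the brighter of the pair stands for Ch25h unless stated. No probe set was listed for Il1rl1 alone, and it was not analysed here. These genes were selected on their measured differences between the groups below and on their relation to Myl7. The hearts were kept beating outside the body on a Langendorff apparatus (buffer enters through the aorta), with 20 min to stabilise, a stop of flow for 20 min and renewed flow for 20 min, and were then frozen. The groups were 7 hearts of wild-type C57Bl6J mice at ZT0 (WT ZT0), 7 of wild-type C57Bl6J mice at ZT12 (WT ZT12) and 5 of Reverb alpha KO mice at ZT12 (KO ZT12). ZT is zeitgeber time, with lights on at ZT0 and lights off at ZT12 in a standard light cycle. All groups shared the ischemia and reperfusion. There were no knockout hearts at ZT0, so genotype and time cannot be told apart in the comparison of knockout with WT ZT0. The strain and the allele of the knockout mice, the age of all mice and the amount of atrium kept on each heart are not stated in the labels.

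IL-33, the protein of Il33, is a cytokine of the IL-1 family that is stored in the nucleus of endothelial, epithelial and stromal cells and is released when cells are damaged. It acts through the receptor ST2, the product of Il1rl1, together with the accessory chain made from Il1rap, and signals through MYD88 and IRAK kinases to NF-kappaB. In the heart it is known mainly from fibroblasts and endothelium, and in mice the IL-33 and ST2 pair limits overload-induced hypertrophy and fibrosis. CH25H, the enzyme encoded by Ch25h, hydroxylates the side chain of cholesterol to give an oxysterol that activates LXR receptors, holds back SREBP2 processing and, after a further step by CYP7B1, gives the ligand of the receptor GPR183. Ch25h is known as a gene that macrophages and other cells induce upon interferon and inflammatory signals. REV-ERB alpha, the product of Nr1d1, is a nuclear receptor of the circadian clock that represses its target genes.

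Both genes lie on chromosome 19 in GRCm38.p6, Il33 at chr19:29925113-29960718 and Ch25h at chr19:34473783-34475148. Their promoter windows, 250 bases before to 50 after the transcript start, are shown because both genes had their highest mean in WT ZT12 and their lowest in the knockout. The sequences are from RefSeq (GRCm38.p6), 5′ to 3′ on the gene's strand, with capitals on the motifs found. Il33 has 2 windows, on the plus strand at chr19:29924863-29925162 and chr19:29945540-29945839, and Ch25h has 1, on the minus strand at chr19:34475099-34475398.
Il33 window 1: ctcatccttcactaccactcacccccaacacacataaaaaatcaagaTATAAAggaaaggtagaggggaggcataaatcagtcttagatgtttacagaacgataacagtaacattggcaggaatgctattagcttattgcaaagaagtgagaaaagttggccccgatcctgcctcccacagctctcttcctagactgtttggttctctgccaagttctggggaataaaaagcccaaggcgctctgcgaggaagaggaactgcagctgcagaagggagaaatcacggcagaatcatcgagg
Il33 window 2: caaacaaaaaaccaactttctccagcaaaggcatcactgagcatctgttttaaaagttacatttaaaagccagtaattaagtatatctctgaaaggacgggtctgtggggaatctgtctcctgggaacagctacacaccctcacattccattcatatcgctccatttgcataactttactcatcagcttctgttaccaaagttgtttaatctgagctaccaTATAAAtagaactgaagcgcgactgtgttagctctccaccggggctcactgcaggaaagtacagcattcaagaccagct
Ch25h window: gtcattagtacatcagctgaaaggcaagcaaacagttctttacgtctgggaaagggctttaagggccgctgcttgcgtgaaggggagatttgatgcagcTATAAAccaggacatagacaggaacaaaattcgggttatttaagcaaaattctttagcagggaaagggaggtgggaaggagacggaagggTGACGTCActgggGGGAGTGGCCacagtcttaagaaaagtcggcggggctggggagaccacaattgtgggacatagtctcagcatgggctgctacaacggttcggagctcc

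Motifs were searched by their letters on both strands. The Ch25h window held TGACGT, the core of the cyclic AMP response element, at position -61 from the start and again on the opposite strand at -59, overlapping as a palindrome. Of 32851 promoter windows of the same length, 7.51% held TGACGT. A motif of the NF-kappaB type, also in capitals, began at -48 in Ch25h, and 20.7% of windows held it. TATAAA was found at -151 in Ch25h, at -203 in the first Il33 window and at -29 in the second, and in 13.6% of all windows. The letters AGGTCA, the core motif bound by REV-ERB and ROR proteins, were in none of the 3 windows and in 16.3% of all windows. The E-box CACGTG (7.15% of windows), the AP-1 site TGANTCA (7.81%) and the interferon response element (3.44%) were also not found in these windows. A match describes letters only, and its absence says nothing about the factor.

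Some facts of the hearts bear on both genes. Array values were log2 intensities, with array medians between 3.25 and 3.32. Nr1d1 itself was at 6.46 to 7.28 in WT ZT12 and at 6.30 to 6.51 in KO ZT12. Where its probes lie relative to the deleted part is not stated in the labels, so these levels do not check the genotype. Arntl, a clock gene that REV-ERB alpha represses, was at 3.72 to 4.31 in WT ZT12 and at 6.28 to 6.77 in KO ZT12; it was named after its values were seen. Myl7, the atrial myosin light chain, had a gap between 5.32 and 7.49 over the 19 hearts, with 4 hearts below it: WT ZT12 replicate 5 and KO ZT12 replicates 2, 4 and 5. Bmp10, a growth factor of right atrial muscle, had a gap between 4.15 and 9.01, with 9 hearts below it: WT ZT0 replicate 1, WT ZT12 replicates 3 to 6 and KO ZT12 replicates 2 to 5. The hearts low in these 2 markers were unevenly spread over the groups, although neither marker passed limma's test in any comparison (adjusted p 0.144 to 0.719), and the values of both genes are given beside them below.

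Il33 was highest in wild-type hearts at ZT12. In WT ZT0 it ranged from 4.50 to 4.99 with a median of 4.72, and its mean was 4.71 ± 0.17 (SD, n = 7). In WT ZT12 it ranged from 4.83 to 5.70 with a median of 5.32, and its mean was 5.29 ± 0.34 (SD, n = 7). In KO ZT12 replicates 1 to 5 it was at 4.80, 4.51, 4.69, 3.95 and 3.99, with a mean of 4.39 ± 0.40 (SD, n = 5). Every knockout heart lay below every WT ZT12 heart, the nearest values being 4.80 and 4.83, the latter in the low-Myl7 WT ZT12 replicate 5. The 2 wild-type groups overlapped, and so did the knockout and WT ZT0 groups. How many of all genes separate groups without overlap was not counted, here or below. Il33 was 1.49-fold higher at ZT12 than at ZT0 in wild type (log2 difference 0.58, SE 0.15) and 1.87-fold lower in knockout than in wild type at ZT12 (log2 difference -0.90, SE 0.16). The knockout and WT ZT0 groups, neighbours in this order, were 0.33 log2 units apart (knockout minus WT ZT0 -0.33, SE 0.16), within the SD of the knockout hearts. Il33 and Ch25h were chosen with these contrasts in view, so their differences are given as a description without a test. As background, limma called 1.13% of genes at an adjusted p under 0.05 between the wild-type groups (0.645% higher and 0.482% lower at ZT12), 0.73% between knockout and wild type at ZT12 (0.442% higher and 0.289% lower in knockout) and 1.34% between knockout and WT ZT0 (0.965% higher and 0.379% lower).

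**Figure D1:**
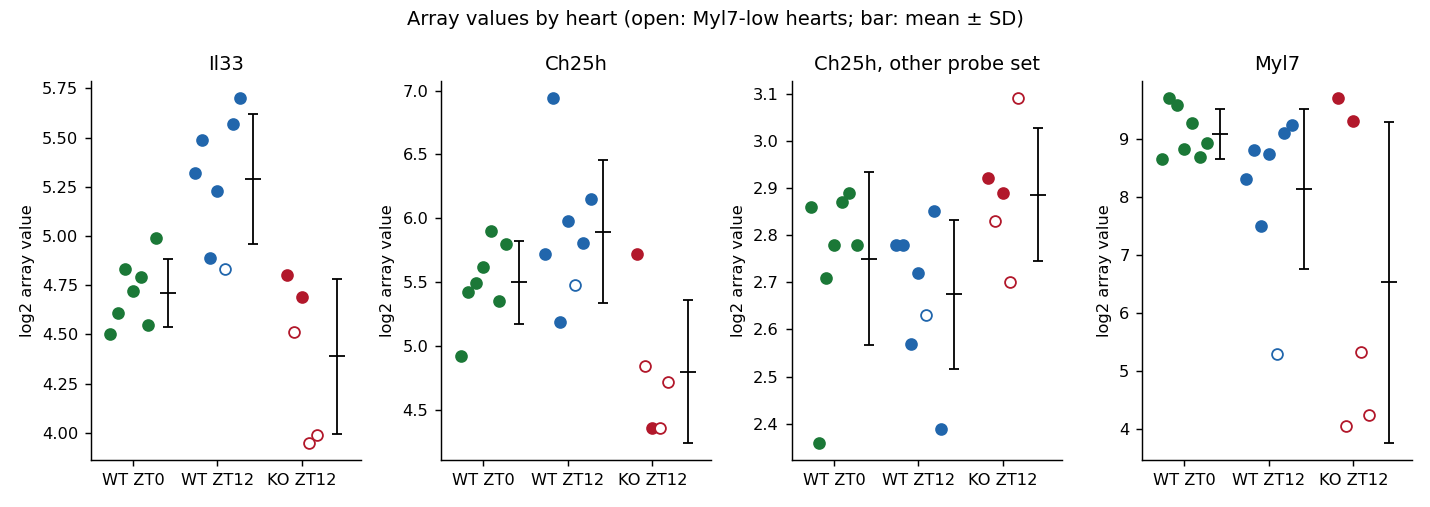
Log2 array values of Il33, of both probe sets of Ch25h and of Myl7 in each heart, by group (WT ZT0, n = 7; WT ZT12, n = 7; KO ZT12, n = 5), with bars for mean ± SD; open circles are the 4 hearts with Myl7 at 5.32 or less. The knockout hearts lie below all WT ZT12 hearts for Il33 (highest 4.80 against lowest 4.83), and 3 of the 5 knockout hearts are among the 4 with low Myl7.

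Ch25h had the same order of group means, with more spread. In WT ZT0 it ranged from 4.92 to 5.90 with a median of 5.49, and its mean was 5.50 ± 0.32 (SD, n = 7). In WT ZT12 it ranged from 5.19 to 6.94 with a median of 5.81, and its mean was 5.89 ± 0.56 (SD, n = 7). In KO ZT12 replicates 1 to 5 it was at 5.72, 4.84, 4.36, 4.36 and 4.72, with a mean of 4.80 ± 0.56 (SD, n = 5). Knockout replicate 1 lay within the range of both wild-type groups, and the other 4 knockout hearts lay below every wild-type heart. The 2 wild-type groups, neighbours in the order, differed by less than the SD of the WT ZT12 hearts (log2 difference 0.39, SE 0.23, 1.31-fold higher at ZT12), and by 0.22 (SE 0.20) without WT ZT12 replicate 2, the highest heart. Ch25h was 2.14-fold lower in knockout than in wild type at ZT12 (log2 difference -1.10, SE 0.25) and 1.63-fold lower in knockout than in WT ZT0 (log2 difference -0.70, SE 0.25), the latter more than the SD of either group although the ranges overlapped.

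The other probe set of Ch25h did not follow the brighter one. It was at 2.75 ± 0.18 in WT ZT0, 2.67 ± 0.16 in WT ZT12 (SD, n = 7 each) and 2.89 ± 0.14 in KO ZT12 (SD, n = 5), below the median of every array. Its knockout mean was 0.21 above that of WT ZT12, where the brighter probe set was lower by 1.10 (a difference of -1.10). With both probe sets averaged, the differences were 0.16 (SE 0.13) at ZT12 minus ZT0, -0.44 (SE 0.14) in knockout minus WT ZT12 and -0.28 (SE 0.14) in knockout minus WT ZT0. The values of Ch25h therefore rest on 1 probe set.

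Within the groups, hearts with more atrial transcript tended to have higher Il33. In KO ZT12 the hearts with Myl7 above the gap, replicates 1 and 3, held the highest Il33 values of that group (4.80 and 4.69), and in WT ZT12 the heart below the gap held the lowest (4.83). In a linear model with 1 mean per group, Il33 was higher by 0.13 log2 units per log2 unit of Myl7 (SE 0.031) and Ch25h by 0.12 (SE 0.061). As background, limma called a slope on Myl7 for 0.5% of genes, 0.473% with a positive slope and 0.0271% with a negative one. Without the 4 low hearts, where 0.0316% of genes were called, all positive, the slopes were 0.32 (SE 0.091) for Il33 and 0.53 (SE 0.22) for Ch25h. Among the 15 hearts above the Myl7 gap, centred on their group means, the Pearson correlation of Il33 with Myl7 was 0.72 and Spearman's rho was 0.68. The relation to Myl7 was in view when the genes were chosen, so it is given without a test. It was 0.47 without the 2 hearts farthest from the median of Myl7, 0.94 within the WT ZT12 hearts and 0.26 within WT ZT0, so its size rested on a few hearts. For Ch25h and Myl7, r was 0.53 and rho 0.52, and r was 0.23 without the 2 farthest hearts.

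With Myl7 as a covariate, the Il33 difference between knockout and wild type at ZT12 was -0.68 (SE 0.13) in place of -0.90, and that between the wild-type groups was 0.70 (SE 0.11) in place of 0.58. The difference between knockout and WT ZT0 was then 0.02 (SE 0.14) in place of -0.33. Without the 4 hearts with low Myl7, the knockout was represented by 2 hearts, with a mean Il33 of 4.74 against 5.37 in 6 WT ZT12 hearts and 4.71 in 7 WT ZT0 hearts. The differences were then -0.62 (SE 0.17) from WT ZT12 and 0.03 (SE 0.17) from WT ZT0. Il33 in the knockout was thus lower than in WT ZT12 with and without these hearts, while its distance from WT ZT0 was present only with them. For Ch25h the knockout minus WT ZT12 difference was -0.90 (SE 0.26) with Myl7 as a covariate and -0.92 (SE 0.36) without the low hearts.

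**Figure D2:**
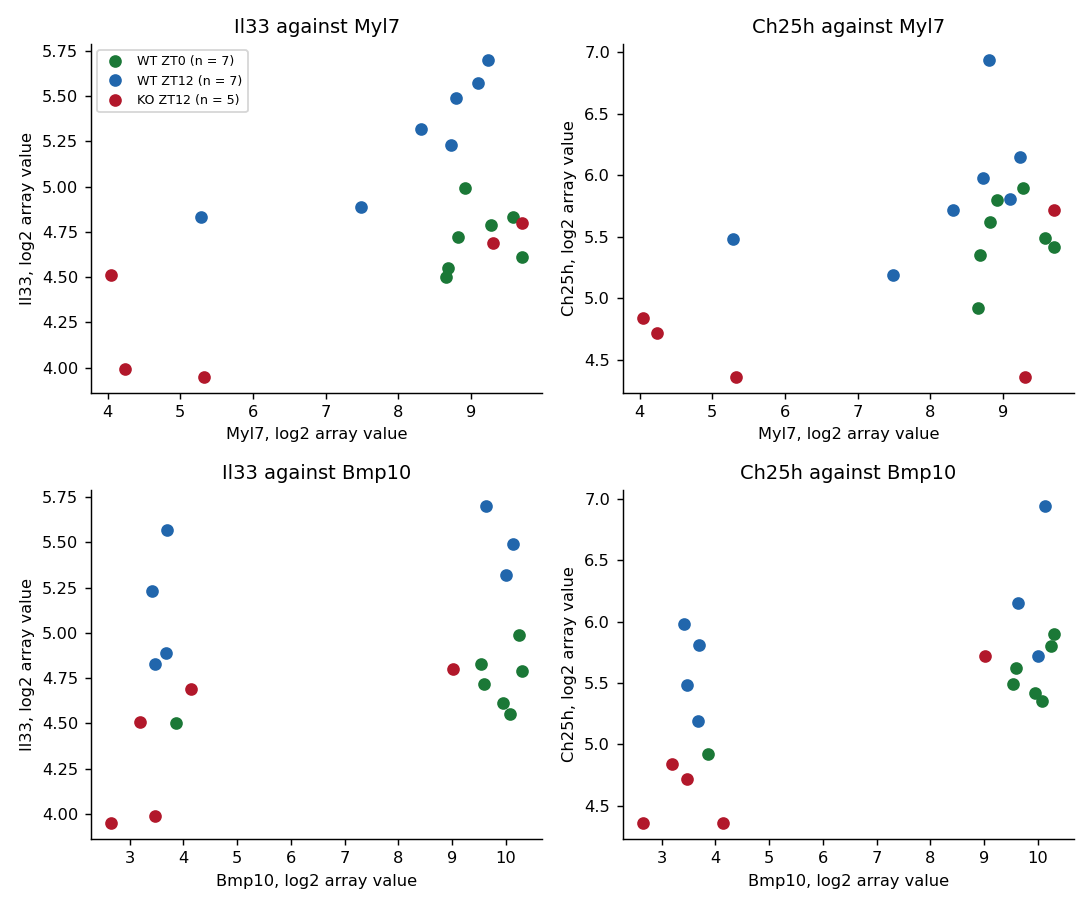
Log2 array values of Il33 (left) and Ch25h (right) against Myl7 (top) and Bmp10 (bottom), 1 point per heart, coloured by group. Among hearts above the Myl7 gap, Il33 is mostly higher in WT ZT12 (4.89 to 5.70) than in WT ZT0 (4.50 to 4.99). Their Myl7 ranges overlap only in part (7.49 to 9.23 in WT ZT12 and 8.65 to 9.70 in WT ZT0). Among hearts with low Bmp10 the 4 knockout hearts lie below the 4 WT ZT12 hearts for both genes.

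Bmp10 divided the hearts differently from Myl7, and the covariate moved the differences of Ch25h between groups more than Myl7 did. Knockout replicate 3 kept Myl7 at 9.30 but had Bmp10 at 4.15, and its Ch25h was at 4.36. Knockout replicate 1, the only knockout heart with high Bmp10 (9.01), had Ch25h at 5.72. In WT ZT0 the only heart with low Bmp10 (3.86) had the lowest Ch25h (4.92) and the lowest Il33 (4.50) of its group. Among the 9 hearts with low Bmp10, Ch25h was at 4.36 to 4.84 in 4 knockout hearts and 5.19 to 5.98 in 4 WT ZT12 hearts, and Il33 at 3.95 to 4.69 and 4.83 to 5.57. Among the 10 hearts with high Bmp10, Il33 was at 4.55 to 4.99 in 6 WT ZT0 hearts and 5.32 to 5.70 in 3 WT ZT12 hearts, with no overlap, and at 4.80 in the single knockout heart. With Bmp10 as a covariate, Ch25h was 0.74 higher (SE 0.18) at ZT12 than at ZT0 in wild type, in place of 0.39, and the knockout minus WT ZT0 difference was -0.13 (SE 0.22) in place of -0.70. The knockout minus WT ZT12 differences were -0.87 (SE 0.19) for Ch25h and -0.79 (SE 0.14) for Il33. The comparisons within the Bmp10 sides were chosen after seeing the data.

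**Figure D3:**
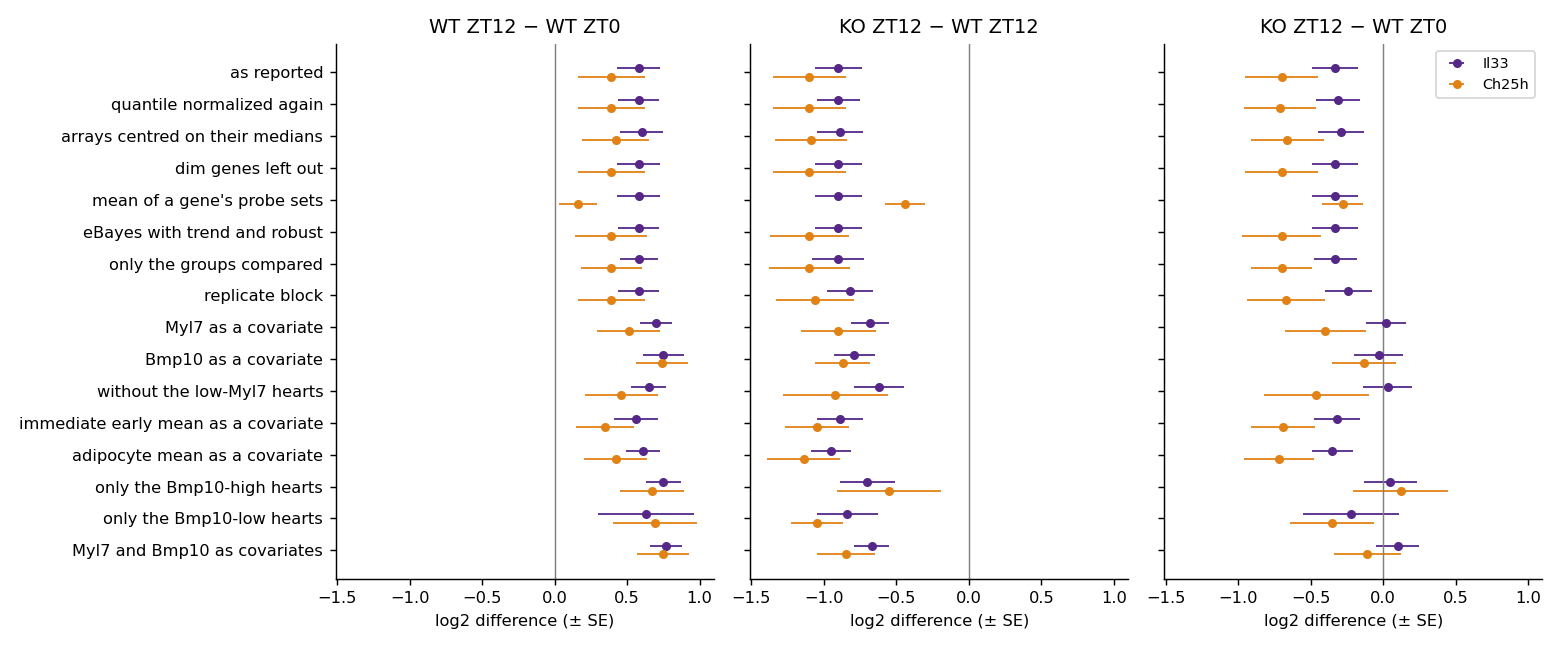
Log2 differences (± SE) of Il33 and Ch25h between the groups as reported and under each other setting. For both genes every setting leaves WT ZT12 above WT ZT0 and the knockout below WT ZT12, whereas the knockout minus WT ZT0 difference of Il33 is 0.02 with Myl7 as a covariate. The Bmp10-high hearts include 1 knockout heart and the Bmp10-low hearts 1 WT ZT0 heart.

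Il33 and Ch25h varied together between hearts of the same group. Centred on group means over 19 hearts, Pearson's r was 0.64 (permutation p = 0.00966, adjusted p = 0.0483) and Spearman's rho 0.64 (permutation p = 0.00773, adjusted p = 0.0386). Permutations were within groups and two-sided, and p-values were adjusted over the 5 relations that do not involve Myl7. Adjusted over all 7 relations computed, those with Myl7 included, the adjusted p-values were 0.0418 for r and 0.0503 for rho. Both genes were chosen with their relation to Myl7 in view. Their relation to each other is thus not independent of that choice, and its p-values do not allow for it. The r of Il33 with Ch25h was 0.61 without the 2 hearts farthest from the median of Il33 and 0.63 without the 4 hearts low in Myl7. It was 0.80 within WT ZT0 and 0.68 within WT ZT12. The mean of 12 immediate early genes, which are induced within minutes by stress, gave r = 0.56 with Ch25h (permutation p = 0.0339, adjusted p = 0.0565) and 0.26 with Il33 (permutation p = 0.378, adjusted p = 0.378). The corresponding rho values were 0.48 (permutation p = 0.0504) and 0.28 (permutation p = 0.281), with adjusted p of 0.084 and 0.297. Within WT ZT12 the r with these early genes was 0.74 for Ch25h and 0.79 for Il33, and within WT ZT0 0.22 and 0.34. Without the 4 hearts low in Myl7 it was 0.73 for Ch25h and 0.45 for Il33. The mean of 6 adipocyte markers gave r = 0.60 with Il33 (permutation p = 0.0241, adjusted p = 0.0565; rho 0.58, permutation p = 0.0256, adjusted p = 0.0641) and 0.32 with Ch25h (permutation p = 0.252, adjusted p = 0.314; rho 0.27, permutation p = 0.297, adjusted p = 0.297). The first was 0.36 without the 2 hearts farthest from the median of these markers, and -0.04 within WT ZT0.

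**Figure D4:**
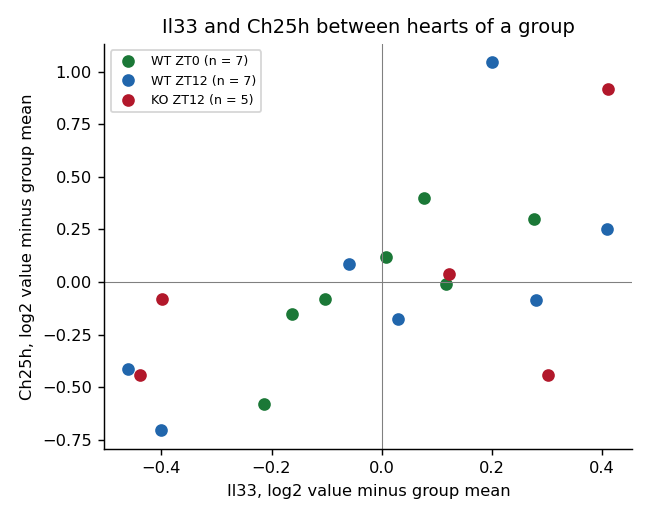
Il33 and Ch25h log2 values in each of the 19 hearts after subtraction of the group mean, coloured by group. Hearts above their group mean in Il33 tend to be above it in Ch25h (r = 0.64), with knockout replicate 3 as the clearest exception.

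The genes most like each of these 2 in pattern were ranked by Pearson's r over the 19 hearts, among 10462 named genes brighter than the median gene. After centring on group means, Il33 was most like Psd3, an ARF6 exchange factor gene (r = 0.87), Upk3b, a uroplakin gene used as a marker of mesothelium (0.86), Gfpt2, which encodes the first enzyme of hexosamine synthesis (0.86), and Pkhd1l1, the fibrocystin-like gene (0.85). Ch25h was most like Ugdh, which encodes UDP-glucose dehydrogenase (0.88), Slamf7, an immune receptor gene (0.87), Uap1, which encodes a UDP-N-acetylglucosamine pyrophosphorylase (0.86), and Gfpt2 (0.86). Without the 4 hearts low in Myl7 the values for Ch25h were 0.97 with Ugdh, 0.94 with Gfpt2, 0.93 with Uap1 and 0.86 with Slamf7, and those for Il33 lay between 0.70 for Gfpt2 and 0.85 for Pkhd1l1. Uncentred, so that differences between groups count, Il33 was most like Slamf7 (0.86), the metalloprotease gene Adamts1 (0.85), Ugdh (0.83) and the myelin protein gene Pmp22 (0.81). Ch25h uncentred was most like Slamf7 and Ugdh (0.93 each), Il6 and Myc (0.88 each). Without the 4 hearts low in Myl7 the uncentred values lay between 0.66 for Pmp22 and 0.80 for Adamts1 with Il33, and between 0.88 for Il6 and Myc and 0.96 for Ugdh with Ch25h. Slamf7 had group means of 4.41, 4.71 and 3.79 and Ugdh of 7.07, 7.34 and 6.60 in WT ZT0, WT ZT12 and KO ZT12, the same order as Il33 and Ch25h. The uncentred ranking favours genes with that order, so the shared order is not a separate result.

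Genes around IL-33 and around CH25H were read from lists drawn up from general knowledge, and the totals below cover both. Over 9 lists with 98 distinct genes measured, limma called 2 genes higher and 0 lower at ZT12 than at ZT0 in wild type, 0 higher and 1 lower in knockout than in wild type at ZT12, and 0 higher and 1 lower in knockout than in WT ZT0. These are 2.04%, 1.02% and 1.02% of the genes, against 1.13%, 0.73% and 1.34% of all genes. At an unadjusted p under 0.05 there were 16, 8 and 18 of these 98 genes, or 16.3%, 8.16% and 18.4%, against 11.5%, 10.6% and 12.6% of all genes. The median differences over the 98 genes were 0.021, -0.038 and -0.0078, beside -0.00354, -0.00305 and -0.00761 over all genes. The unadjusted shares were thus above those of all genes at ZT12 against ZT0 and in knockout against WT ZT0. In knockout against WT ZT12 the share was below that of all genes. Whether the lists differ from the background was not tested.

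**Figure D5:**
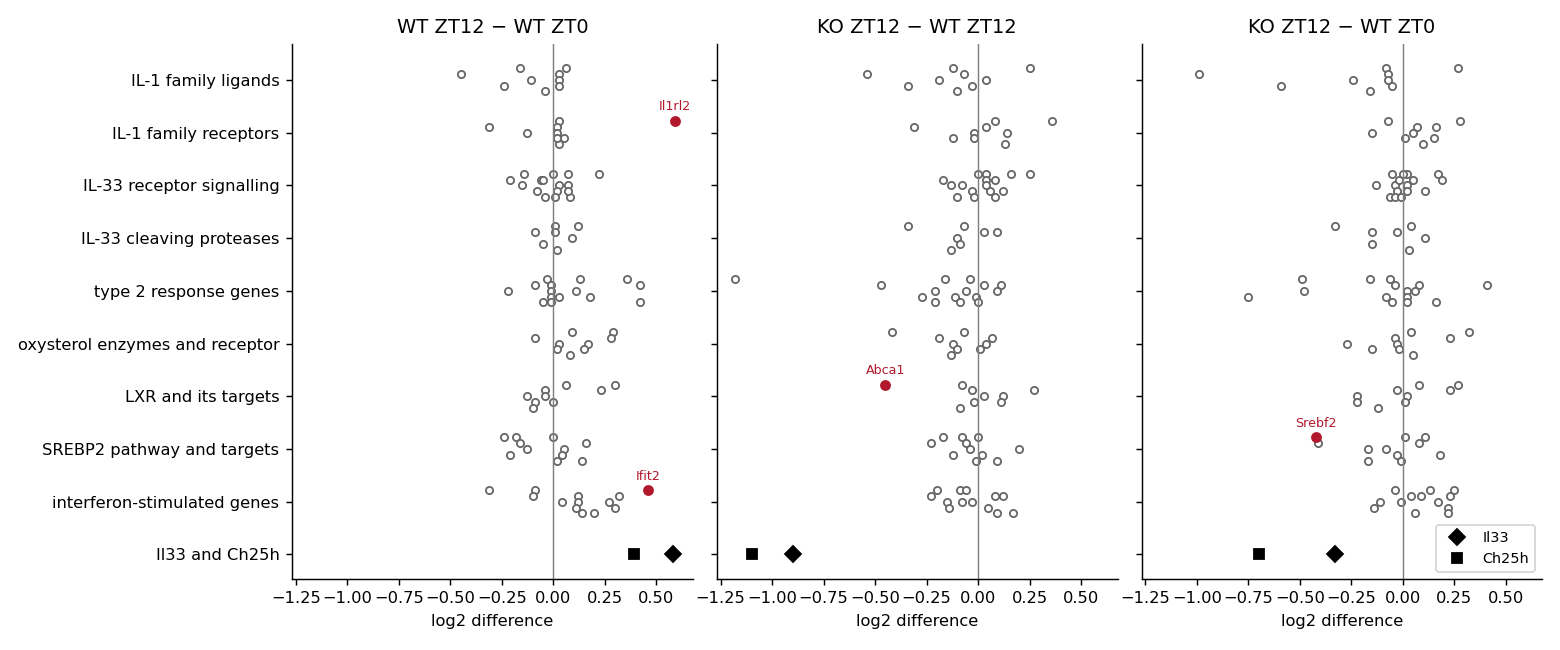
Log2 differences of each measured gene in the 9 lists for the 3 comparisons, 1 circle per gene; filled red circles with names passed an adjusted p under 0.05, and black symbols show Il33 (diamond) and Ch25h (square). Only Il1rl2, Ifit2, Abca1 and Srebf2 passed, each in 1 comparison.

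Among 9 ligand genes of the IL-1 family, limma called 0 in each comparison (0, 1 and 4 at an unadjusted p under 0.05, in the order ZT12 against ZT0, knockout against WT ZT12 and knockout against WT ZT0). Il1b, the gene of IL-1 beta, had means of 6.61, 6.16 and 5.62 in WT ZT0, WT ZT12 and KO ZT12, and its knockout minus WT ZT0 difference was -0.99 (adjusted p = 0.15). Il1f8, an IL-36 ligand gene read dimly (1.76 to 2.03), was at 0.25 in knockout minus WT ZT12 (adjusted p = 0.263). The median over the list was -0.045, -0.10 and -0.077 in the 3 comparisons.

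Of 9 receptor genes of the family, 1 rose at ZT12 and none passed in the knockout comparisons (2, 2 and 1 at an unadjusted p under 0.05). Il1rl2, the gene of the IL-36 receptor, ranged from 3.20 to 3.98 in WT ZT0 and from 3.86 to 4.47 in WT ZT12, with medians of 3.51 and 4.21. In KO ZT12 replicates 1 to 5 it was at 3.97, 3.95, 3.97, 3.88 and 3.58. Only WT ZT0 replicate 3 reached into the WT ZT12 range. It rose 1.50-fold between the wild-type groups (log2 difference 0.59, SE 0.11; limma adjusted p = 0.00727), a call kept in every planned setting and without any single heart. The knockout minus WT ZT12 difference of -0.31 did not pass (adjusted p = 0.345). Il1rap, whose product pairs with ST2 in the IL-33 receptor, had nearly equal means of 4.41 ± 0.17, 4.44 ± 0.22 and 4.42 ± 0.16 in WT ZT0, WT ZT12 (SD, n = 7 each) and KO ZT12 (SD, n = 5). Il18r1, a subunit gene of the IL-18 receptor, was at 0.36 in knockout minus WT ZT12 (adjusted p = 0.294), and Il1r1, the IL-1 receptor gene, at 0.16 in knockout minus WT ZT0 (adjusted p = 0.562).

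Of 16 measured genes of signalling downstream of the receptor, limma called 0 in each comparison (2, 1 and 0 at an unadjusted p under 0.05). Irak3, which encodes an inhibitory kinase homologue, was at 0.22 at ZT12 minus ZT0 (adjusted p = 0.305) and -0.17 in knockout minus WT ZT12 (adjusted p = 0.559). Irak2 was at -0.21 at ZT12 minus ZT0 (adjusted p = 0.418), and the adaptor gene Myd88 at 0.25 in knockout minus WT ZT12 (adjusted p = 0.442). Tab1 and Ikbkb, genes of kinase complexes upstream of NF-kappaB, were at 0.17 and 0.19 in knockout minus WT ZT0 (adjusted p = 0.421 and 0.454). Of 7 measured genes of proteases that cleave IL-33, 0 were called and 0 had an unadjusted p under 0.05 in all comparisons. Prtn3, the proteinase 3 gene, was at -0.34 in knockout minus WT ZT12 (adjusted p = 0.505).

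Of 15 measured genes linked to the type 2 response, limma called 0 in each comparison (2, 1 and 2 at an unadjusted p under 0.05). Il6 had means of 5.17 ± 0.34, 5.59 ± 0.90 and 4.41 ± 1.1 (SD), and in KO ZT12 replicates 1 to 5 it was at 6.28, 4.25, 3.68, 4.31 and 3.55. Replicate 1, the knockout heart with high Ch25h, was thus also the one with high Il6, and the difference from WT ZT12 did not pass (log2 difference -1.18, SE 0.41; adjusted p = 0.259). Ccl11, the eotaxin gene, was at 0.42 and Tslp, an epithelial alarmin gene, at 0.36 at ZT12 minus ZT0 (adjusted p = 0.214 and 0.131). Retnla was at -0.47 in knockout minus WT ZT12 (adjusted p = 0.532), and the chemokine gene Ccl24 at -0.49 in knockout minus WT ZT0 (adjusted p = 0.157).

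Around CH25H, 9 genes of oxysterol enzymes and of the receptor GPR183 were measured, and limma called 0 in each comparison (3, 1 and 3 at an unadjusted p under 0.05). Gpr183 had means of 4.44, 4.59 and 4.17 in WT ZT0, WT ZT12 and KO ZT12, and its knockout minus WT ZT12 difference was -0.42 (adjusted p = 0.156). Cyp39a1 and Cyp27a1, genes of other sterol hydroxylases, were at 0.29 and 0.28 at ZT12 minus ZT0 (adjusted p = 0.118 and 0.258). Hsd3b7, which acts after CYP7B1, was at -0.19 in knockout minus WT ZT12 (adjusted p = 0.622).

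Of 9 measured genes of LXR and its targets, 1 fell in the knockout against WT ZT12, and 0 were called in the other comparisons (2, 2 and 3 at an unadjusted p under 0.05). Abca1, which encodes the exporter of cholesterol to apolipoproteins, ranged from 6.44 to 6.83 in WT ZT0 and from 6.78 to 7.13 in WT ZT12, and was at 6.51, 6.39, 6.71, 6.55 and 6.10 in KO ZT12 replicates 1 to 5. All knockout hearts lay below all WT ZT12 hearts. It fell 1.37-fold (log2 difference -0.45, SE 0.094; limma adjusted p = 0.0244), which did not pass without KO ZT12 replicate 2 or 5 (adjusted p = 0.0639 and 0.0705), with Myl7 or Bmp10 as a covariate (0.0876 and 0.0533), without the low-Myl7 hearts (0.43), with only the groups compared (0.0818) and with a replicate block (0.0843). Mylip, the gene of a ubiquitin ligase of the LDL receptor, was at 0.30 at ZT12 minus ZT0 (adjusted p = 0.0579), and Smpdl3a at 0.23 in knockout minus WT ZT0 (adjusted p = 0.149).

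Of 11 measured genes of the SREBP2 pathway, 1 fell in the knockout against WT ZT0, and 0 were called in the other comparisons (1, 0 and 3 at an unadjusted p under 0.05). Srebf2, the gene of SREBP2 itself, had medians of 5.80 in WT ZT0 and 5.51 in WT ZT12, and was at 5.45, 5.33, 5.32, 5.10 and 5.59 in KO ZT12 replicates 1 to 5. Its log2 difference was -0.24 at ZT12 minus ZT0 in wild type and -0.17 in knockout minus WT ZT12 (limma adjusted p = 0.239 and 0.532). Srebf2 was 1.33-fold lower in knockout than in WT ZT0 (log2 difference -0.42, SE 0.093, limma adjusted p = 0.0257). It did not pass when WT ZT0 replicate 4 or 6 or KO ZT12 replicate 2, 3 or 4 was left out (adjusted p 0.0517 to 0.095), with Myl7 (0.183) or Bmp10 (0.327) as a covariate, without the low-Myl7 hearts (0.187), with only the groups compared (0.0582) and with a replicate block (0.125). Insig1, a sterol sensor gene, was at -0.23 in knockout minus WT ZT12 (adjusted p = 0.602), and Fdft1 at 0.16 at ZT12 minus ZT0 (adjusted p = 0.469).

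Of 13 measured interferon-stimulated genes, 1 rose at ZT12 and 0 were called in the knockout comparisons (4, 0 and 2 at an unadjusted p under 0.05). Ifit2, which encodes an RNA-binding antiviral protein, ranged from 3.63 to 4.15 in WT ZT0 and from 4.15 to 4.60 in WT ZT12, and was at 4.08, 4.16, 4.35, 3.84 and 3.99 in KO ZT12 replicates 1 to 5. It rose 1.37-fold between the wild-type groups (log2 difference 0.46, SE 0.092; limma adjusted p = 0.0122), a call kept in every planned setting and without any single heart. Rsad2 was at 0.23 in knockout minus WT ZT0 (adjusted p = 0.358) and Usp18 at -0.23 in knockout minus WT ZT12 (adjusted p = 0.505).

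Markers of cells that could hold these transcripts were read on the same arrays. In bulk tissue, fewer cells of a type and less RNA per cell cannot be told apart. The mean of 7 atrial muscle markers lay between 7.70 and 9.12 in WT ZT0, 5.90 and 8.98 in WT ZT12 and 5.54 and 8.91 in KO ZT12, with 0 of 7 called between knockout and WT ZT12 (0 at an unadjusted p under 0.05) and a median difference of -0.94. Against WT ZT0 all 7 had an unadjusted p under 0.05 in the knockout (median difference -1.5), and 1 was called, Gpr22, which rose (log2 difference 0.45, adjusted p = 0.046). At ZT12 against ZT0 in wild type 0 of 7 were called (2 at an unadjusted p under 0.05; median difference -0.69). Of 6 mesothelial markers, 1 fell in knockout against WT ZT12, Lrrn4 (log2 difference -0.53, adjusted p = 0.0359). In that comparison 2 of 6 had an unadjusted p under 0.05, and the median difference of the list was -0.21. Against WT ZT0 0 were called in the knockout (2 at an unadjusted p under 0.05, median difference -0.32). The mean of the mesothelial list lay between 3.95 and 4.52 in WT ZT0, 3.72 and 4.37 in WT ZT12 and 3.51 and 4.34 in KO ZT12. Fibroblast markers lay between 6.89 and 7.22 in WT ZT12 and 6.52 and 7.38 in KO ZT12, macrophage markers between 6.25 and 6.68 and between 5.60 and 6.56, and endothelial markers between 7.29 and 7.60 and between 7.26 and 7.58. In these 3 lists 0 genes were called between knockout and WT ZT12 (1 of 8, 1 of 7 and 2 of 8 at an unadjusted p under 0.05). The median differences there were -0.0076 for fibroblast, -0.27 for macrophage and 0.024 for endothelial markers. Against WT ZT0 0 were called in the knockout (1, 5 and 2 at an unadjusted p under 0.05), with a median difference of -0.34 for the macrophage markers. At ZT12 against ZT0 in wild type, 1 of 8 endothelial markers fell, Kdr (log2 difference -0.52, adjusted p = 0.0016), and 1 of 5 lymphatic endothelial markers, Prox1 (log2 difference -0.40, adjusted p = 0.0136), while 0 fibroblast and macrophage markers were called (1 and 0 at an unadjusted p under 0.05). Mast cell markers averaged 2.65 in the knockout and 2.80 in WT ZT12, below the array medians. Markers of innate and helper T lymphocytes averaged 3.21 and 3.25, near those medians. In both lists 0 genes were called between knockout and WT ZT12 (3 of 8 and 1 of 8 at an unadjusted p under 0.05). The median differences there were -0.11 and -0.073. Fcer1a (mean 1.54 in WT ZT12), Cma1 (1.99) and Cd3e (2.83), picked from these lists, were below the array medians. The other genes of these lists are not named here. Adipocyte markers ranged widely in every group, from 3.62 to 5.17 in WT ZT0, 3.34 to 5.96 in WT ZT12 and 3.43 to 6.15 in KO ZT12. With their mean as a covariate the knockout minus WT ZT12 differences were -0.95 (SE 0.14) for Il33 and -1.14 (SE 0.25) for Ch25h. Immediate early genes averaged 8.24, 8.29 and 8.23 in the 3 groups, and with their mean as a covariate these differences were -0.89 (SE 0.16) and -1.05 (SE 0.22). The part of mesothelial, fibroblast, macrophage and endothelial content in the values of Il33 and Ch25h was not tested.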

How the data were processed

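Total RNA (300 ng per heart) was labelled for Affymetrix whole-transcript arrays, 1 array per heart, per the labels' protocols. The deposited values are on a log2 scale, 1 per probe set, and the authors used RMA, per the submitters' processing notes; the log2 scale was taken from the values (0.21 to 12.88), and no source used here gives the RMA version. The table's 19 columns were all used. Of 41345 probe sets, the GEO platform annotation gives 23521 a single gene, 1814 several and 16010 none here. The brightest probe set stood for a gene, which left 22180 genes.

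The model was fitted in limma 3.58.1 (R 4.3.3), with 1 mean per group over all arrays, eBayes and Benjamini-Hochberg adjustment over 22180 genes (called at 0.05). Differences are of log2 group means, with limma's SE. Permutations numbered 100000. Of the 7 relations computed, the 2 with Myl7 are given without a p. On simulated data with 22180 genes, the fit recovered 14% of genes shifted by 0.25 log2 units, 70% by 0.5 and 100% by 1 between knockout and wild type at ZT12. The shifted genes were drawn at random, with noise independent between genes. The median SE over all genes was 0.105 in that comparison. These shares therefore do not carry over to genes with a larger SE, such as Ch25h (0.25). The labels name the replicates biological, and the number of arrays limits the precision.

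Replicate numbers recur in the groups, but the deviations of hearts with the same number correlated between -0.072 and 0.074, so hearts were not treated as paired. The genes and lists followed here were chosen with earlier results of these data known. Named list genes were all called genes or, where none was called, the 2 with the smallest p; the pattern ranking left out clone names, predicted genes, small RNAs and receptor families of smell. Arntl, the Bmp10 sides and single markers were picked with their values known. The self-made lists covered ligands, receptors, signalling, proteases, type 2, oxysterol, LXR, SREBP2 and interferon genes. Alternatives changed the normalization, filter, probe set rule, variance model, samples and covariates.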

Additional observations from a re-analysis of the deposited data

Results flagged for a closer look

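Among the values given by heart, a heart far from the others of its group was found in 5 of 39 sets by Dixon's ratio, which chance gives in about 1 of 20 groups. Bmp10 was at 3.86 in WT ZT0 replicate 1, the next heart being at 9.54, and at 9.01 in KO ZT12 replicate 1, the next being at 4.15. The dim probe set of Ch25h was at 2.36 in WT ZT0 replicate 2, with the next heart at 2.71. Il6 was at 6.28 in KO ZT12 replicate 1, with the next heart at 4.31. Il1rl2 was at 3.58 in KO ZT12 replicate 5, with the next heart at 3.88. Il33 and the brighter probe set of Ch25h had no such heart in any group.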

How the results depend on the processing

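In every setting, added ones included, Il33 and Ch25h were higher in WT ZT12 than in WT ZT0 and lower in the knockout than in WT ZT12. Leaving out single hearts gave 0.51 to 0.65 and -1.0 to -0.79 for Il33, and 0.22 to 0.51 and -1.33 to -0.92 for Ch25h. Without WT ZT12 replicate 2 the ZT12 minus ZT0 difference of Ch25h was 0.22. Averaging the probe sets moved the 3 differences of Ch25h to 0.16, -0.44 and -0.28. The knockout minus WT ZT0 difference (single hearts left out: -0.43 to -0.22 for Il33, -0.93 to -0.59 for Ch25h) moved with the setting. For Il33 it was 0.02 with Myl7 as a covariate, 0.03 without the low-Myl7 hearts, 0.10 with Myl7 and Bmp10, 0.05 in the Bmp10-high hearts, -0.03 with Bmp10 and -0.22 in the Bmp10-low hearts. For Ch25h it was -0.13 with Bmp10, -0.11 with both, 0.12 in the Bmp10-high hearts, -0.40 with Myl7, -0.46 without the low-Myl7 hearts and -0.35 in the Bmp10-low hearts. In the Bmp10-high hearts Ch25h was -0.55 in knockout minus WT ZT12, with 1 knockout heart, assumed to vary like the others. Every knockout difference in the Bmp10-high hearts, for both genes, rests on that heart. Every difference from WT ZT0 in the Bmp10-low hearts, the ZT12 minus ZT0 differences included, rests on 1 WT ZT0 heart.

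The replicate block left the knockout minus WT ZT12 differences at -0.82 for Il33 and -1.06 for Ch25h, and gave 88 called genes in place of 162 there, 182 in place of 298 against WT ZT0, and 0 list genes against WT ZT12. Called genes between knockout and WT ZT12 numbered 283 without dim genes, 270 with trend and robust eBayes, 72 with only the groups compared and 19 without the low-Myl7 hearts, and 94 to 161 leaving out single hearts. Against WT ZT0 they were 527 without dim genes, 187 with only the groups compared, 176 with Myl7, 134 with Bmp10 and 84 without the low-Myl7 hearts, and 171 to 311 leaving out single hearts. Between the wild-type groups they were 431 without dim genes, against 250, and 185 to 269 leaving out single hearts.

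List genes called were 4 between the wild-type groups without dim genes (2 to 3 leaving out single hearts). Between knockout and WT ZT12 they were 2 without dim genes and with trend and robust eBayes, 0 with only the groups compared, with either atrial covariate or without the low-Myl7 hearts, and 0 to 2 leaving out single hearts. Against WT ZT0 they were 2 without dim genes, 3 with the immediate early mean, 0 with only the groups compared, either covariate or without the low-Myl7 hearts, and 0 to 2 leaving out single hearts. Insig1 was at 0.00 in knockout minus WT ZT12 without the low-Myl7 hearts. Without the low-Myl7 hearts the slopes on Myl7 were 0.32 for Il33 and 0.53 for Ch25h. Without the 2 farthest hearts, correlations with Myl7 were 0.47 and 0.23, and those with the adipocyte mean 0.36 and -0.099. The causes of these changes were not tested.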
